A study of Homo sapiens with 96 samples.

Results

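The comparison described here sets ribosome footprints of Bmal1 knockdown cells against those of wild-type cells, gene by gene. All 24 knockdown footprint libraries and all 24 wild-type footprint libraries were used, 48 of the 96 libraries of the series, and each knockdown library was matched to wild-type by circadian time. The other 48 libraries are total RNA of the same design and are used only where a footprint value is set beside the mRNA. The effect of a gene was taken as knockdown minus wild-type on a log2 scale, averaged over 12 times, so a positive effect means more footprints in knockdown cells.

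The cells were U2-OS, a human osteosarcoma line, in a derivative that expresses luciferase from the Per2 promoter. Knockdown cells were seeded at 560000 per plate, grown without antibiotics and transfected by RNAiMAX lipid with 120 pmol per plate of a mixture of 5 siRNAs (siBMAL1-1 to siBMAL1-5), double-stranded RNAs that guide the cell to cut mRNAs they match. Wild-type cells were seeded more densely and received no siRNA. Dexamethasone, a glucocorticoid drug, was given to both at 0.1 µM to set their clocks, and cells were collected from 24.5 h after synchronisation at 2 h steps, named CT00 to CT22. Cycloheximide at 100 µg/mL for 3 min held ribosomes on their mRNA before lysis, and RNase I trimmed each mRNA to the fragments the ribosomes cover. Each treatment and time has 2 replicates. The labels name no control siRNA and no second line or clone, so loss of BMAL1, transfection, off-target cleavage and seeding density cannot be told apart in any difference given here.

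BMAL1, written ARNTL in the files, is a transcription factor that pairs with CLOCK and binds the E-box CACGTG. The pair drives PER, CRY, REV-ERB (NR1D1, NR1D2) and DEC (BHLHE40, BHLHE41) genes, whose products repress the pair or its genes and so close a daily loop. REV-ERBs bind the ROR elements of ARNTL, and the D-box factor DBP and its relatives carry the rhythm to further genes. A footprint count follows both the amount of an mRNA and how densely ribosomes occupy it.

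Knockdown footprint libraries held 2.60 to 4.32 M reads (M, 1e+06 reads, median 3.55) and wild-type footprint libraries 2.50 to 5.82 M (median 4.08). Knockdown libraries had reads on 13331 to 13827 genes and wild-type libraries on 12851 to 14074. A count of 3 reads, taken as the floor of detection, is 0.695 to 1.15 CPM (read counts scaled to 1e+06 reads) in knockdown and 0.515 to 1.20 CPM in wild-type libraries, a limit that covers counting error only. Of 19438 genes, 1938 had no footprint read, 6311 had too few and 11189 were tested. Replicates differed by more than counting noise (chi-square per degree of freedom 1.40 to 8.06 over 24 pairs). Nothing says that replicates were separate cultures, so p-values measure the spread between these libraries only. Each treatment has 2 series of 12 libraries, 1 for each replicate number. Deviations of replicates from their mean correlated between times in wild-type (median r 0.23, over 0.1 in 59 of 66 pairs of times) and little in knockdown (median r 0.016, 4 of 66 pairs). Wild-type libraries of a series thus shared a deviation, and p-values that take 24 libraries as independent are too small. The counting strand is not stated. NR1D1, which overlaps THRA on the other strand, is therefore uncertain. Families with near-identical members (histones, ribosomal proteins, tubulins, metallothioneins, HSPA1A and HSPA1B) are uncertain because of these close paralogs. CPM do not allow for gene length, so levels are compared between treatments and never between genes.

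Mesenchymal and bone-line markers, looked up because the label names an osteosarcoma line, were uneven in footprints. VIM and SPARC had many, while the bone genes ALPL and RUNX2, given below, had few. Of 12 such markers 11 were tested, 8 higher and 2 lower in knockdown (37.8% and 37.6% of all tested genes), and their summed share of footprint reads was 1.65 to 2.04% in knockdown and 1.32 to 1.69% in wild-type libraries. VIM, an intermediate filament protein, averaged 7643 CPM in knockdown and 7341 CPM in wild-type, and SPARC, a bone matrix protein, 2636 CPM in knockdown and 2422 CPM in wild-type. TWIST1 had 56 reads over all knockdown libraries and 1 over all wild-type libraries and was not tested. Markers of other cells held small summed shares of footprint reads, though CD68, NEFL and RBFOX3 were above the floor. Of 10 epithelial markers 2 were tested (summed share 0.0007 to 0.00186% in knockdown and 0.000385 to 0.0029% in wild-type) and GRHL2 had 0 reads. Of 10 blood markers only CD68 was tested (summed share 0.00273 to 0.00671% in knockdown and 0.00032 to 0.00119% in wild-type), HBB and HBA1 had 0 reads, and PTPRC, the pan-leukocyte marker, had 8 reads over all knockdown libraries and 9 over all wild-type libraries. CD68, which is also a lysosomal protein, averaged 39.0 CPM in knockdown and 6.37 CPM in wild-type, an effect of 2.61. None of 5 endothelial markers in the files had enough reads to test. Of 8 neuronal markers 4 were tested (summed share 0.0175 to 0.0244% in knockdown and 0.0116 to 0.0158% in wild-type), with NEFL at 172 CPM in knockdown and 78.6 CPM in wild-type and RBFOX3 at 21.7 CPM in knockdown and 43.9 CPM in wild-type. A part of rare cells in the differences was not tested.

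The target came first. ARNTL had 0 to 1.97 CPM (median 0.690) in knockdown libraries, which is 0 to 6 reads each, against 6.51 to 28.3 CPM (median 19.5) and 26 to 161 reads in wild-type libraries. Every knockdown library lay below every wild-type library, so the target separated all 48 libraries as labelled. The effect was -4.44 ± 0.17 (log2 ± SE), a value that depends on the pseudocount because some knockdown libraries had no read.

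Clock genes did not all move one way. A search for CACGTG, which reads the same on both strands, in the 250 bases before the RefSeq gene start (GRCh38.p14) found it for 6 of 21 clock genes with a promoter entry, and in 6.49% of all 27305 promoters of that length. The 4 that carry it and also changed in footprints are printed from far to near the gene start, with the E-box in capitals, to show that a match accompanied either direction.
BHLHE40, chr3:4979187-4979436, plus strand: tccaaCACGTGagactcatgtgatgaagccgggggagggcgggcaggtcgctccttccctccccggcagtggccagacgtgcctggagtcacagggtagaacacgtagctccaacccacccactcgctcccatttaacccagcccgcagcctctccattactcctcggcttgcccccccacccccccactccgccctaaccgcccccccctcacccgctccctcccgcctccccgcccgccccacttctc
BHLHE41, chr12:26125038-26125287, minus strand: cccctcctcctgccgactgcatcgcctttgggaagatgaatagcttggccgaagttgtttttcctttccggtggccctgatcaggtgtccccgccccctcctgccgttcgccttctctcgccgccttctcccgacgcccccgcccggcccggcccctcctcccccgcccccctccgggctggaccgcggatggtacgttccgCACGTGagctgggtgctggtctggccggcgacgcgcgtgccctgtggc
PER1, chr17:8152405-8152654, minus strand: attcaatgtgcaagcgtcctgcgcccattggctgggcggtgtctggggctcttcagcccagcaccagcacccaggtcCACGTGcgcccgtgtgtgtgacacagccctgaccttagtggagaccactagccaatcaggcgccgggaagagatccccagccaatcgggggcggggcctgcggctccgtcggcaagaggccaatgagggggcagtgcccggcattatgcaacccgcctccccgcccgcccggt
TIMELESS, chr12:56449427-56449676, minus strand: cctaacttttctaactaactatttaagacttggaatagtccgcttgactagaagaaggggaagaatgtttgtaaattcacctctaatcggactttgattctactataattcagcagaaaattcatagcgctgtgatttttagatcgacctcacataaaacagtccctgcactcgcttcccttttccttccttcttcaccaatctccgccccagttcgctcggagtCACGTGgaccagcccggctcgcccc
The E-box begins 245 bases before the start of BHLHE40, 48 before that of BHLHE41, 173 before that of PER1 and 25 before that of TIMELESS. BHLHE40 was higher in knockdown footprints and the other 3 were lower, as given next. The remaining matches were in TEF and in C1orf51 (CIART), of which TEF did not pass the threshold and C1orf51 had too few reads to test. No match in this window says only that these letters are absent from it.

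Among repressors, NR1D2, which encodes REV-ERB beta, had 7.50 to 15.3 CPM (median 10.1) in knockdown, against 51.5 to 145 CPM (median 78.9) in wild-type. The groups were far apart at each time, with an effect of -2.92 ± 0.06 (adjusted p = 3.11e-35, lower at 12 of 12 times). Its relative NR1D1 had 4.15 to 7.93 CPM (median 5.89) in knockdown and 8.35 to 46.1 CPM (median 17.7) in wild-type, without overlap (-1.67 ± 0.09). PER3 had 14.5 to 26.3 CPM (median 20.2) in knockdown and 23.6 to 97.7 CPM (median 49.4) in wild-type. Its groups overlapped only where wild-type was at its lowest, at CT00, and the effect was -1.29 ± 0.06. BHLHE41, the repressor DEC2, had 4.42 to 22.7 CPM (median 11.1) in knockdown and 5.32 to 47.1 CPM (median 27.4) in wild-type. It overlapped widely, fell by 0.95 (SE 0.17, adjusted p = 1.92e-05) and was lower at each of the 12 times. TIMELESS, which also serves at replication forks, had 38.6 to 75.9 CPM (median 61.3) in knockdown and 78.0 to 110.0 CPM (median 90.3) in wild-type and did not overlap (-0.66 ± 0.04). PER1 fell by 0.23 (SE 0.04) and was lower at 9 of 12 times, with 79.6 to 114 CPM (median 101) in knockdown and 92.8 to 146 CPM (median 113) in wild-type.

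Other repressors rose. CRY2, a partner of the PER proteins, had 38.0 to 52.0 CPM (median 45.5) in knockdown and 8.07 to 30.4 CPM (median 15.4) in wild-type. No knockdown library fell within the wild-type range, and the effect was 1.59 ± 0.06 (adjusted p = 5.47e-25). BHLHE40, the repressor DEC1, had 137 to 241 CPM (median 189) in knockdown and 57.5 to 112 CPM (median 85.3) in wild-type, again without overlap (1.10 ± 0.05). PER2 had 19.5 to 40.5 CPM (median 27.3) in knockdown and 2.83 to 30.4 CPM (median 13.6) in wild-type. It was higher at 11 of 12 times (1.07 ± 0.09), by 2.11 at CT00, and at CT06 the difference was -0.04. CRY1, at 42.5 to 55.1 CPM (median 48.4) in knockdown and 33.9 to 65.9 CPM (median 49.7) in wild-type, did not pass the threshold (0.01 ± 0.04, 95% interval -0.07 to 0.10). It passed with the deposited scaling.

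**Figure D1:**
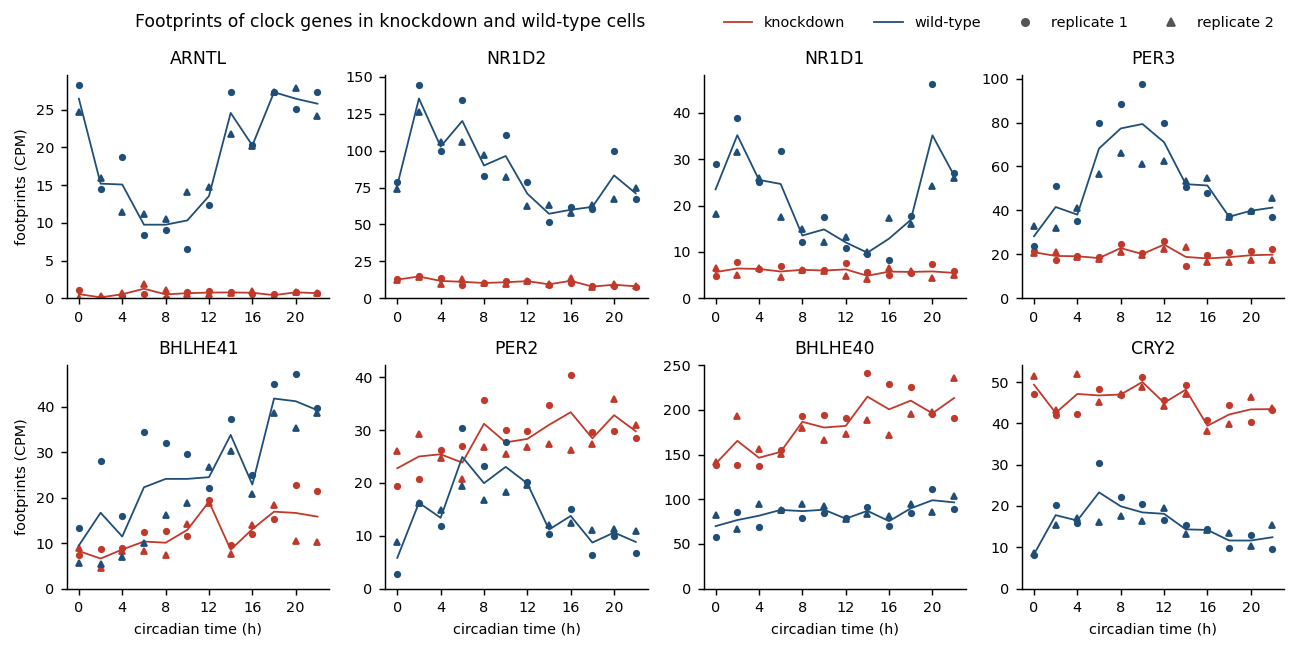
Footprints (CPM, vertical axes, each from 0) against circadian time (h) for 8 clock genes. Points are libraries, circles for replicate 1 and triangles for replicate 2, and lines are means of the 2 replicates, red for knockdown and blue for wild-type. Knockdown ARNTL stays at or under 1.97 CPM, and PER2 is near equal in the treatments at CT06 and far apart at CT00.

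Among activators and outputs, CLOCK, the partner of BMAL1, had 42.4 to 61.6 CPM (median 49.0) in knockdown and 42.5 to 61.1 CPM (median 50.7) in wild-type, with an effect of -0.04 ± 0.05 that did not pass (95% interval -0.14 to 0.05). ARNTL2 and NPAS2, relatives of BMAL1 and CLOCK, had effects of 0.19 ± 0.08 and 0.23 ± 0.09. Both passed in limma. Both missed in DESeq2, with series means and without replicate 1 of either or both treatments, and NPAS2 was -0.0067 with replicate 1 of both left out. DBP, an activator at D-boxes, had 3.92 to 12.6 CPM (median 6.05) in knockdown and 8.48 to 36.9 CPM (median 18.7) in wild-type and fell by 1.48 (SE 0.10), lower at 12 of 12 times with a small overlap of the groups. NFIL3, the D-box repressor, rose by 0.27 (SE 0.05). RORA (-0.12 ± 0.11) and TEF (0.13 ± 0.08) did not pass, and RORB and HLF had too few reads. TEF passed with the deposited scaling. Of 10 tested clock kinases, phosphatases and ubiquitin ligases 2 rose and 5 fell, or 5 and 4 with the deposited scaling. BTRC, a ubiquitin ligase that acts on PER proteins, had 48.4 to 72.3 CPM (median 58.6) in knockdown and 28.4 to 39.6 CPM (median 33.4) in wild-type (0.81 ± 0.05). PPP1CB, a phosphatase subunit, had 381 to 479 CPM (median 423) in knockdown and 517 to 687 CPM (median 598) in wild-type (-0.51 ± 0.03).

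Across the table, 8435 of 11189 tested genes (75.4%) passed an adjusted p of 0.05 in limma, 4231 higher (37.8%) and 4204 lower (37.6%) in knockdown. These shares are the background for each gene list count given here. Most effects were small. The absolute effect had a median of 0.27 and quartiles of 0.12 and 0.53 (log2), 449 genes (4.01%) rose by 2-fold or more, and 376 (3.36%) fell by as much. Of all tested genes, 5197 (46.4%) were called with the same sign at all 12 times. Computed from replicate 1 and from replicate 2 apart, effects correlated over the 11189 genes at a Pearson r of 0.93, a description, since genes are not independent replicates. Of all 11189 tested genes, 9683 had the same sign in both. Among called genes the share was 98.8%, but they were called from these same replicates, which favours 1 sign. For 713 genes (6.37%) every knockdown library lay above every wild-type library, for 631 (5.64%) below. When each series of 12 libraries was reduced to its mean, 2 against 2, 6589 genes passed. With the scaling the authors deposited, 61.4% of called genes were higher, against 50.2% here, and the median of all genes moved from -0.001 to 0.09.

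**Figure D2:**
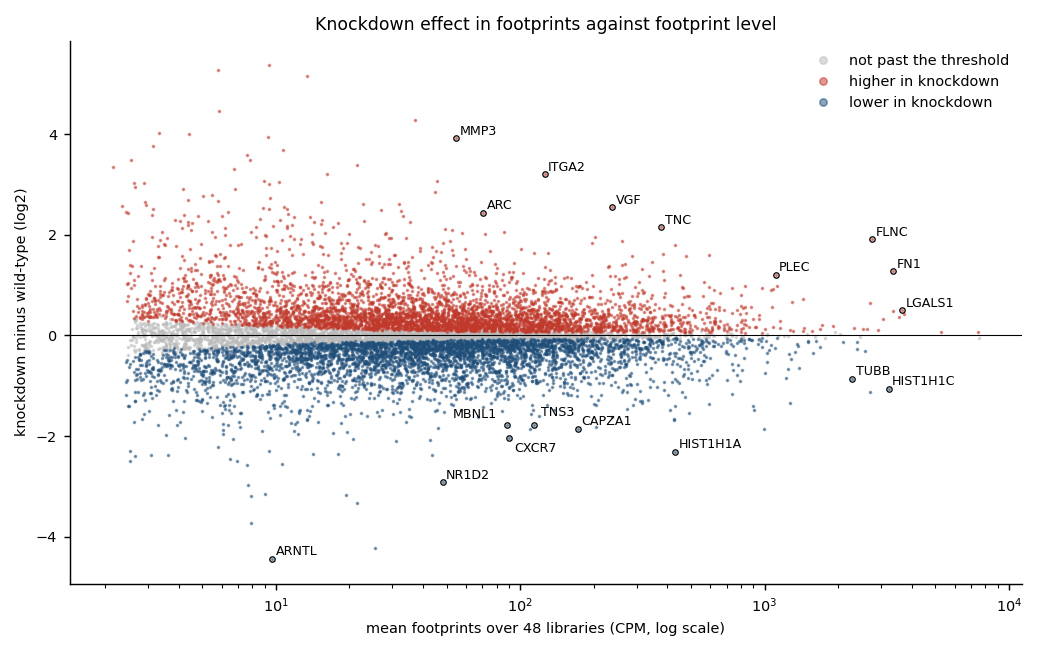
Knockdown minus wild-type in footprints (log2, vertical axis) against mean footprints over the 48 libraries (CPM, log scale) for the 11189 tested genes. Red points are higher and blue points lower in knockdown at an adjusted p of 0.05, grey points did not pass, and circled genes are named in the text. Most genes lie within 1 log2 unit of 0, and genes with large effects occur at low and at high levels.

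The 10 largest gains in footprints among genes with 1 sign at all times were FLNC, FN1, LGALS1, PSAP, FLNA, MYH9, PKM, PLEC, COL4A2 and APP. Together they gained 13727 CPM, 11.6% of the summed gains of all tested genes. FLNC, an actin cross-linker of muscle, had 3488 to 5145 CPM (median 4388) in knockdown and 746 to 1748 CPM (median 1141) in wild-type. FN1, fibronectin of the matrix, had 4042 to 5550.2 CPM (median 4774) in knockdown and 1568 to 2444 CPM (median 1933) in wild-type. Neither gene's groups overlapped, and the effects were 1.91 ± 0.08 and 1.27 ± 0.05. LGALS1, a galactoside-binding lectin, had 3752 to 5242 CPM (median 4256) in knockdown and 2581 to 3355 CPM (median 2996) in wild-type (0.50 ± 0.02). PSAP, the precursor of lysosomal saposins, had 2989.8 to 3429.5 CPM (median 3305) in knockdown and 1688 to 2341 CPM (median 2114) in wild-type (0.64 ± 0.02). PLEC, which links intermediate filaments to junctions, had 1209 to 1939.6 CPM (median 1537) in knockdown and 509.8 to 828 CPM (median 678) in wild-type (1.21 ± 0.05). These 3 did not overlap either. MYH9, the non-muscle myosin heavy chain, rose by 0.43, the glycolytic enzyme PKM by 0.36, FLNA by 0.49, the basement membrane collagen COL4A2 by 0.99 and APP by 0.72, each with no overlap except FLNA. Choosing large changes with 1 sign at all times favours such separation, which held for 6.37% of all tested genes.

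The 10 largest losses included 7 histone and 2 tubulin genes. HIST1H1C, HIST1H1E, TUBB, HIST1H3D, HIST1H2AG, HIST1H2AH, HIST1H2BJ, TOP2A, TUBB4B and HIST1H1A lost 11125 CPM together, 9.44% of the summed losses. HIST1H1C, a linker histone, had 1315 to 3008 CPM (median 2068) in knockdown and 3630.1 to 5184 CPM (median 4234) in wild-type (-1.06 ± 0.04). TUBB, a beta-tubulin, had 1283 to 1903 CPM (median 1640.5) in knockdown and 2495 to 3518 CPM (median 2884) in wild-type (-0.86 ± 0.03). TOP2A, the topoisomerase that untangles chromosomes for mitosis, had 444 to 1196 CPM (median 937) in knockdown and 1241 to 2347 CPM (median 1574) in wild-type (-0.85 ± 0.06). In each of the 10, every knockdown library was below every wild-type library, as in 5.64% of all tested genes. The rule that chose them favours this separation.

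Next come the 10 largest rises among genes with at least 50 CPM. MMP3, a matrix metalloprotease, had 49.3 to 192 CPM (median 97.9) in knockdown and 1.00 to 20.0 CPM (median 6.81) in wild-type. ITGA2, the collagen-binding integrin subunit, had 165 to 439 CPM (median 199) in knockdown and 17.2 to 30.0 CPM (median 24.3) in wild-type. Both were separated at each time, with effects of 3.91 ± 0.18 and 3.20 ± 0.05. VGF, a secreted neuropeptide precursor, had 310.4 to 579.6 CPM (median 404) in knockdown and 47.1 to 109 CPM (median 71.6) in wild-type (2.55 ± 0.08). ARC, an activity-induced gene of neurons, had 80.1 to 166 CPM (median 119) in knockdown and 13.3 to 37.4 CPM (median 20.8) in wild-type (2.43 ± 0.09). TNC, the matrix glycoprotein tenascin C, had 532 to 773 CPM (median 599) in knockdown and 103 to 169 CPM (median 142) in wild-type (2.15 ± 0.06). The groups did not overlap for these 3, nor for PSTPIP2, an actin-associated adaptor, CD82, a tetraspanin, SP110, an interferon-induced nuclear protein, SLFN5, a Schlafen family member, and ADAM19, a membrane protease. Those 5 rose by 2.10, 2.05, 2.04, 2.02 and 1.96. Separation upward held for 6.37% of all tested genes and is favoured by the choice of the largest rises.

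The largest falls at that level, beside 5 histones, were CXCR7, CAPZA1, MBNL1, TNS3 and EDIL3. CXCR7, a chemokine scavenger receptor, had 18.7 to 54.4 CPM (median 35.9) in knockdown and 94.7 to 196 CPM (median 149) in wild-type (-2.03 ± 0.05). CAPZA1 caps actin filaments and had 57.7 to 95.9 CPM (median 75.0) in knockdown and 230.0 to 340.2 CPM (median 267) in wild-type (-1.86 ± 0.04). The splicing regulator MBNL1 had 29.1 to 53.8 CPM (median 39.9) in knockdown and 119.8 to 162 CPM (median 134) in wild-type (-1.78 ± 0.04). No knockdown library of these 3 reached the wild-type range. TNS3, a focal adhesion protein, fell by 1.78 and EDIL3, a secreted integrin ligand, by 1.68, also without overlap. Separation downward held for 5.64% of all tested genes and is favoured by the choice of the largest falls. RPF2, a factor of large subunit assembly, had 0.546 to 4.16 CPM (median 2.40) in knockdown and 34.5 to 72.0 CPM (median 45.2) in wild-type (-4.22 ± 0.15), the lowest effect of 22 ribosome assembly genes, of which 12 rose and 4 fell, or 14 and 1 with the deposited scaling. Whether any siRNA of the mixture cleaves these mRNAs was not tested.

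Genes of DNA replication and of mitosis were lower almost without exception. All 18 tested genes of the MCM helicase, GINS and origin licensing fell, with a median of -0.95 against -0.001 for all tested genes and a background of 37.6% lower. MCM6, a helicase subunit, had 85.8 to 157 CPM (median 107) in knockdown and 261 to 385 CPM (median 286) in wild-type (-1.38 ± 0.04). ORC1, of the origin recognition complex, had 18.6 to 48.7 CPM (median 29.1) in knockdown and 50.9 to 94.1 CPM (median 66.0) in wild-type (-1.20 ± 0.05). Both, and MCM3 (-1.18 ± 0.03), had no overlap. All 24 fork and nucleotide genes fell as well (median -0.73). TK1, thymidine kinase, had 156 to 296 CPM (median 239) in knockdown and 542 to 743 CPM (median 610.1) in wild-type (-1.40 ± 0.03). CHAF1B, a histone chaperone subunit, fell by 1.19. In repair, 18 of 18 Fanconi and homologous recombination genes fell (median -0.86), among them the nuclease subunit EME1 (-1.30 ± 0.08) and the helicase BLM (-1.12 ± 0.07). These counts were 18, 23 to 24 and 16 to 18 under every setting tried.

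All 25 kinesin, centromere and spindle genes fell (median -0.85), as did 21 of 22 mitotic kinases, cyclins and APC/C genes (median -0.82). NUSAP1, a spindle protein, had 98.2 to 263 CPM (median 188) in knockdown and 365 to 594 CPM (median 449) in wild-type (-1.35 ± 0.06). CCNA2, a cyclin needed for S phase and mitotic entry, had 58.6 to 152 CPM (median 119.8) in knockdown and 225 to 388 CPM (median 278) in wild-type (-1.36 ± 0.04). UBE2S, which extends ubiquitin chains for the APC/C, had 23.4 to 50.8 CPM (median 31.4) in knockdown and 74.9 to 154 CPM (median 97.8) in wild-type (-1.62 ± 0.07). None of the 3 overlapped. The 1 exception was FZR1, the APC/C activator of G1, which rose by 0.14 (SE 0.04). Together the kinesin, centromere and spindle list held 0.242 to 0.606% of reads in knockdown and 0.658 to 1.15% in wild-type libraries. In lysates of many cells, fewer dividing cells and less of each mRNA per cell cannot be told apart.

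Of 13 tested histone genes 12 fell (median -1.27), and their share of footprint reads averaged 0.693 ± 0.145% in knockdown and 1.52 ± 0.172% in wild-type (SD, n = 24 each). HIST1H3D, a core histone, had 265 to 665 CPM (median 404) in knockdown and 1163 to 1885 CPM (median 1549) in wild-type (-1.86 ± 0.05). HIST2H2BE had 75.3 to 169 CPM (median 112) in knockdown and 274 to 484 CPM (median 355) in wild-type (-1.62 ± 0.06). The exception was H2AFY, macroH2A, which rose by 0.06, a call lost under some settings.

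Cell-cycle entry genes were split. Of 21 tested G1 cyclins, CDKs, E2Fs and CDK inhibitors 5 rose and 14 fell (median -0.68). E2F2, an activator of S-phase genes, had 3.21 to 14.5 CPM (median 8.16) in knockdown and 22.3 to 47.4 CPM (median 31.7) in wild-type (-2.05 ± 0.08), and E2F8 fell by 1.73. CDKN1C, the inhibitor p57, fell by 1.76. CCND2, cyclin D2, had 796 to 1105 CPM (median 885) in knockdown and 238 to 342 CPM (median 295) in wild-type (1.60 ± 0.03). CDK6, its kinase, rose by 0.77. CDKN1A, the CDK inhibitor p21, had 513 to 796 CPM (median 675) in knockdown and 141 to 253 CPM (median 193) in wild-type (1.79 ± 0.06). The last 3 and E2F2 did not overlap.

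CDKN1A is also a target of p53, and 20 of 22 tested p53 targets rose (median 1.14), where 37.8% of all tested genes rose, 13 of them at least 2-fold. PLK3, a stress kinase, had 52.8 to 94.5 CPM (median 66.2) in knockdown and 11.6 to 27.2 CPM (median 20.2) in wild-type (1.75 ± 0.06). GDF15, a secreted stress cytokine, had 2.60 to 13.8 CPM (median 7.10) in knockdown and 0 to 3.55 CPM (median 1.29) in wild-type, near the floor (2.19 ± 0.17). In 16 of the 22, every knockdown library was above every wild-type library, as in 6.37% of all tested genes. CCNG1 fell by 0.38, and the polymerase POLH by 0.11, a call not kept in every setting. Between 18 and 20 targets rose under every setting tried.

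**Figure D3:**
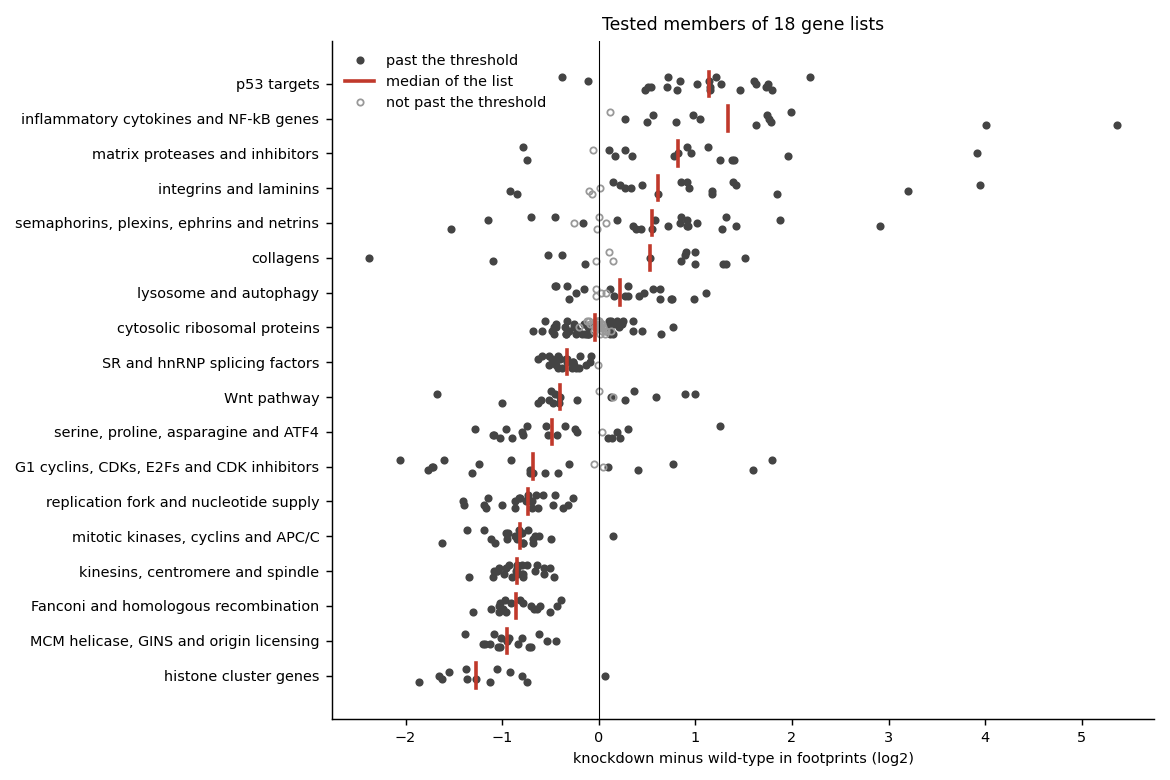
Knockdown minus wild-type in footprints (log2, horizontal axis) for the tested members of 18 gene lists. Each point is a gene, filled if it passed an adjusted p of 0.05, and the red bar is the median of the list. Medians run from 1.34 for inflammatory genes (0.91 with no filter on low values) and 1.14 for p53 targets to -1.27 for histones. Ribosomal proteins lie around 0.

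Matrix genes were mixed, adhesion genes mostly higher, beside a background of 37.8% higher and 37.6% lower among all tested genes. Of 17 tested collagens 9 rose and 5 fell (median 0.53). COL6A3 had 391 to 564 CPM (median 430.4) in knockdown and 109 to 265 CPM (median 193) in wild-type (1.31 ± 0.09), and COL13A1, a membrane collagen, rose by 1.51. COL3A1, a fibril collagen, had 0 to 2.14 CPM (median 0.825) in knockdown, near or under the floor, and 1.52 to 11.8 CPM (median 4.52) in wild-type (-2.37 ± 0.16). COL8A1, COL16A1, COL4A1 and COL1A1 were the other 4 that fell. Enzymes that fold and cross-link collagen had 7 higher and 9 lower of 18, or 8 and 6 with the deposited scaling, and the collagen chaperone SERPINH1 had 319 to 567 CPM (median 387) in knockdown and 617 to 919 CPM (median 765) in wild-type (-0.97 ± 0.04). PCOLCE, the enhancer of procollagen trimming, fell by 1.38. LEPRE1, a prolyl hydroxylase, rose by 0.43.

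Of 21 tested integrins and laminins 16 rose and 2 fell (median 0.62), and they held 0.694 to 0.825% of reads in knockdown and 0.412 to 0.576% in wild-type libraries. ITGAX, an integrin of leukocytes, had 13.0 to 24.4 CPM (median 16.5) in knockdown and 0 to 2.42 CPM (median 0.963) in wild-type (3.94 ± 0.17). Its wild-type values lay near the floor, so the size of the effect depends on the pseudocount. ITGB4 and LAMA5 fell by 0.92 and 0.84. Matrix proteases and their inhibitors had 14 higher and 2 lower of 17 (median 0.82). Urokinase, PLAU, had 52.3 to 80.1 CPM (median 59.6) in knockdown and 14.3 to 30.3 CPM (median 23.4) in wild-type (1.40 ± 0.05). The inhibitor TIMP2 had 171 to 266 CPM (median 209) in knockdown and 289.7 to 429.6 CPM (median 347) in wild-type (-0.74 ± 0.03), and MMP15, a membrane-bound protease, fell by 0.78.

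Matricellular and osteoblast proteins had 7 higher and 6 lower of 14 tested. SPP1, osteopontin, had 51.4 to 132 CPM (median 85.6) in knockdown and 12.3 to 65.1 CPM (median 28.9) in wild-type (1.52 ± 0.13), and the bone phosphatase ALPL had 10.1 to 23.2 CPM (median 17.1) in knockdown and 1.42 to 7.62 CPM (median 5.45) in wild-type (1.72 ± 0.10). RUNX2, the master factor of osteoblasts, had 11.6 to 39.1 CPM (median 22.2) in knockdown and 23.9 to 59.7 CPM (median 39.0) in wild-type (-0.76 ± 0.07). ALPL was separated and the other 2 overlapped. IGFBP7 fell by 1.39 and IGFBP5, the bone-stored IGF binding protein, by 0.77.

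Inflammatory cytokine and NF-kB genes had 13 higher and 0 lower of 14 tested in limma (median 1.34). The count lower was also 0 at an unadjusted p under 0.05, in edgeR and in DESeq2. BCL2A1, a survival protein, had 8.72 to 52.0 CPM (median 14.4) in knockdown and 0 to 1.42 CPM (median 0) in wild-type (5.36 ± 0.20). IL1A, an alarm cytokine, had 4.58 to 20.6 CPM (median 7.29) in knockdown and 0 to 1.25 CPM (median 0.229) in wild-type (4.01 ± 0.19). IL11, of the IL6 family, had 3.98 to 24.8 CPM (median 9.76) in knockdown and 0.715 to 3.90 CPM (median 2.41) in wild-type (1.99 ± 0.15). The 3 did not overlap. Wild-type medians of BCL2A1 and IL1A were under the floor, so the size of their effects depends on the pseudocount, and 11 further listed genes were too low to test. Under other settings 7 to 16 rose, the 16 where no gene was filtered and the 7 where at least 10 CPM was asked for. The median was 0.91 and 0.77 in these fits. The main filter admits a gene with enough reads in 1 treatment alone. Genes nearly absent from wild-type thus entered only through knockdown, which raises the count and median.

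Interferon-stimulated genes, watched because transfected RNA can induce them, had 8 higher and 2 lower of 14 tested (median 0.29). Of all tested genes 37.8% were higher and 37.6% lower. DDX58, the RNA sensor RIG-I, had 58.9 to 88.9 CPM (median 70.1) in knockdown and 19.0 to 32.9 CPM (median 28.0) in wild-type (1.41 ± 0.04). IFIT1, a classic interferon target, had 3.04 to 8.11 CPM (median 5.57) in knockdown and 12.0 to 26.5 CPM (median 16.9) in wild-type (-1.76 ± 0.09). These 2 genes, both without overlap, went opposite ways. OAS3 and OASL rose by 0.65 and 1.07, and IFITM3 fell by 0.29. The RNA interference machinery had 2 higher and 6 lower of 9, or 3 and 4 with the deposited scaling, between -0.38 (TNRC6B) and 0.28 (XPO5).

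Immediate early genes had 9 higher and 2 lower of 14 tested (median 0.34). DUSP5, a phosphatase of ERK, had 10.8 to 39.6 CPM (median 17.6) in knockdown and 1.01 to 9.64 CPM (median 3.52) in wild-type (2.36 ± 0.18), with no overlap. FOSL1, an AP-1 subunit, had 53.8 to 111 CPM (median 64.9) in knockdown and 12.4 to 56.7 CPM (median 19.5) in wild-type (1.67 ± 0.11), and single libraries overlapped. EGR1 passed at 1.04 and lost the call without replicate 1 (0.44, adjusted p = 0.249). Glucocorticoid-induced genes, which report the dexamethasone given to both treatments, had 5 higher and 7 lower of 14, or 3 and 7 with series means. FKBP5 had 79.4 to 125 CPM (median 107) in knockdown and 167 to 276 CPM (median 221) in wild-type (-1.03 ± 0.05), and FGD4 fell by 1.90.

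Signalling families divided by member, as did all tested genes (37.8% higher and 37.6% lower). TGF-beta and BMP genes had 6 higher and 13 lower of 26 tested (median -0.22). The receptor TGFBR2 had 105 to 174 CPM (median 121) in knockdown and 46.6 to 81.0 CPM (median 60.8) in wild-type (1.03 ± 0.04), while the co-receptor TGFBR3 had 0.819 to 5.81 CPM (median 3.33) in knockdown and 6.36 to 10.9 CPM (median 8.29) in wild-type (-1.39 ± 0.10). Both receptors were separated, in opposite directions. The ligand BMP2 rose by 0.90, and SMAD6, an inhibitor, fell by 1.23. Wnt pathway genes had 6 higher and 11 lower of 19 (median -0.40). ROR1, a receptor for WNT5A, had 2.08 to 11.3 CPM (median 6.25) in knockdown and 13.1 to 27.9 CPM (median 20.8) in wild-type (-1.67 ± 0.10). WNT5A itself rose by 0.59, the secreted inhibitor SFRP1 fell by 1.00, and the receptors FZD8 and FZD4 changed by 0.90 and -0.63. In the Notch pathway 5 rose and 3 fell of 8, with the ligand JAG1 at 61.2 to 100.3 CPM (median 77.4) in knockdown and 22.6 to 34.6 CPM (median 30.6) in wild-type (1.38 ± 0.05) and the coactivator MAML1 at -0.73.

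Growth factor ligands and receptors had 13 higher and 8 lower of 23 (median 0.38). NRG1, a ligand of ERBB receptors, had 21.2 to 39.2 CPM (median 28.3) in knockdown and 3.40 to 14.7 CPM (median 8.42) in wild-type (1.83 ± 0.12). FGF1 had 28.4 to 45.2 CPM (median 32.0) in knockdown and 7.10 to 17.6 CPM (median 9.92) in wild-type (1.74 ± 0.07), and FGF2 fell by 0.81. VEGFC, a ligand for lymphatic vessels, rose by 1.82, and the insulin receptor INSR fell by 1.06. Guidance genes, the semaphorins, plexins, ephrins and netrins, had 18 higher and 5 lower of 27 (median 0.55). SEMA7A, a membrane semaphorin, had 319 to 565 CPM (median 394) in knockdown and 69.7 to 149 CPM (median 114) in wild-type (1.87 ± 0.09). SEMA3F, a secreted one, had 10.7 to 29.5 CPM (median 18.6) in knockdown and 25.8 to 58.9 CPM (median 46.5) in wild-type (-1.15 ± 0.07). SEMA5A and EFNB1 rose by 2.91 and 1.42, and SEMA3B and SLIT2 fell by 1.53 and 0.70. Cadherins and junction proteins had 11 higher and 5 lower of 18, with PCDH7 at 24.3 to 68.4 CPM (median 37.1) in knockdown and 4.63 to 17.7 CPM (median 11.2) in wild-type (1.80 ± 0.09) and JUP, plakoglobin, at -0.88.

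In the cytoskeleton, 12 of 24 actin, myosin and contractile genes rose and 10 fell, beside 37.8% and 37.6% of all tested genes. ACTA2, smooth muscle actin, had 22.4 to 39.6 CPM (median 32.5) in knockdown and 4.92 to 12.3 CPM (median 7.91) in wild-type (2.01 ± 0.08), and TAGLN, an actin binder of the same cells, rose by 1.27. The troponin TNNC1 had 1.61 to 6.12 CPM (median 3.55) in knockdown and 20.7 to 76.2 CPM (median 34.2) in wild-type (-3.32 ± 0.10). ACTG2, the other smooth muscle actin, fell by 1.24 (SE 0.13). Tubulins and intermediate filaments had 4 higher and 11 lower of 19 (median -0.29), or 6 and 10 with the deposited scaling. LMNB1, of the nuclear lamina, had 137 to 296 CPM (median 220.5) in knockdown and 522 to 753 CPM (median 599) in wild-type (-1.49 ± 0.03). TUBA1A rose by 0.83 and TUBB2B fell by 1.27.

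Splicing factors were lower as a group by a small amount. Of 25 SR and hnRNP genes 24 fell and 0 rose in limma (median -0.33), where 37.6% of all tested genes fell. The count higher was also 0 at an unadjusted p under 0.05, in edgeR and in DESeq2. For 7 every knockdown library lay below every wild-type library, as in 5.64% of all tested genes. With the deposited scaling 1 rose and 21 fell. HNRNPC, which packages nascent RNA, had 82.6 to 123 CPM (median 104) in knockdown and 125 to 188 CPM (median 157) in wild-type (-0.63 ± 0.04), and SRSF10 and HNRNPD fell by 0.58 and 0.52.

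The translation machinery was near 0 as a group in the mean over the 12 times. Of 66 tested cytosolic ribosomal proteins 17 rose and 26 fell (median -0.04). The split was 30 and 18 with the deposited scaling, 6 and 29 without replicate 1 and 26 and 18 without replicate 2, so no direction is given for the family. The family's median effect was -0.29 at CT00 and 0.18 at CT20, and 3 of the 66 passed the by-time test given below. The difference from total RNA was lower for 34 and higher for 5 of the 66, beside 17.1% and 14.2% of all genes. Counts of that difference over all genes moved with the scaling, as given below. RPS21 had 71.5 to 109 CPM (median 86.5) in knockdown and 115 to 193 CPM (median 134) in wild-type without overlap (-0.68 ± 0.05), and RPS12 and RPS25 fell by 0.59 and 0.55. Translation factors and other TOP mRNAs had 8 higher and 12 lower of 28, or 13 and 4 with the deposited scaling. EEF2, the translocase, had 2862 to 3924 CPM (median 3341) in knockdown and 2370.4 to 3208 CPM (median 2684) in wild-type (0.32 ± 0.03). Aminoacyl-tRNA synthetases had 9 higher and 6 lower of 20, or 12 and 3 with the deposited scaling. VARS rose by 0.62 and HARS by 0.58, while AARS, the alanine enzyme, had 280.5 to 382 CPM (median 326) in knockdown and 403 to 484 CPM (median 446) in wild-type (-0.46 ± 0.02).

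Genes of serine, proline and asparagine synthesis and their regulators had 6 higher and 15 lower of 22 (median -0.48). PHGDH, the first enzyme of serine synthesis, had 162 to 218 CPM (median 191) in knockdown and 373 to 563 CPM (median 486) in wild-type (-1.29 ± 0.03). ASNS, asparagine synthetase, had 93.6 to 132 CPM (median 105) in knockdown and 141 to 311 CPM (median 230.4) in wild-type (-1.09 ± 0.08). Neither overlapped. PPP1R15A, which brings the phosphatase to eIF2, rose by 1.25. Amino acid transporters had 6 higher and 8 lower of 16, with the glutamate carrier SLC1A3 at 4.49 to 12.2 CPM (median 7.05) in knockdown and 20.2 to 35.1 CPM (median 27.4) in wild-type (-1.93 ± 0.07) and the cystine carrier SLC7A11 lower (-0.98 ± 0.05). Antioxidant genes of NRF2 and metallothioneins had 4 higher and 9 lower of 17 (median -0.10). The split was 6 and 7 with the deposited scaling, 8 and 7 without wild-type replicate 2 (median 0.03) and 4 and 12 without replicate 1, so no direction is given for the list. TXNRD1, thioredoxin reductase, had 224 to 383 CPM (median 276) in knockdown and 498 to 839 CPM (median 613) in wild-type (-1.13 ± 0.04), NQO1 fell by 0.90, and HMOX1, heme oxygenase, rose by 0.76.

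Lysosome and autophagy genes had 14 higher and 6 lower of 24 (median 0.22), beside 37.8% higher and 37.6% lower of all tested genes. NEU1, a sialidase, had 96.8 to 142 CPM (median 114) in knockdown and 41.4 to 68.8 CPM (median 55.2) in wild-type (1.11 ± 0.05), and ATP6V0D1, of the proton pump, rose by 0.99. LAMP2 had 265 to 320.4 CPM (median 294) in knockdown and 367 to 452 CPM (median 398) in wild-type (-0.46 ± 0.02). All 3 were without overlap. Sterol and fatty acid genes had 13 higher and 5 lower of 24, or 11 and 7 without wild-type replicate 1. FASN, fatty acid synthase, had 1348 to 1999 CPM (median 1543) in knockdown and 829 to 1228 CPM (median 1004) in wild-type (0.66 ± 0.04). IDI1, an isoprenoid isomerase, had 11.0 to 24.0 CPM (median 14.5) in knockdown and 17.4 to 42.2 CPM (median 30.4) in wild-type (-0.97 ± 0.08), with overlap. Proteasome subunits had 12 higher and 12 lower of 33, or 17 and 6 with the deposited scaling. PSMD2, of the regulatory particle, had 1132 to 1635 CPM (median 1309.7) in knockdown and 575 to 932 CPM (median 727) in wild-type (0.91 ± 0.02), and PSMA1 fell by 0.57. The respiratory chain had 16 higher and 6 lower of 29 (median 0.08), or 23 and 3 with the deposited scaling and 7 and 2 with series means, with NDUFA10 higher by 0.49. Endoplasmic reticulum chaperones had 6 higher and 10 lower of 20, or 9 and 8 with the deposited scaling. HSP90B1 fell by 0.53 and the translocon subunit SEC61A1 rose by 0.64. Glycolysis and hypoxia genes had 4 higher and 8 lower of 22, or 7 and 6 with the deposited scaling, with NDRG1 lower (-0.88 ± 0.04) and the glucose carrier SLC2A3 higher (1.10 ± 0.07). Heat shock proteins had 8 higher and 4 lower of 17, between -0.66 (HSPB1) and 0.47 (HSPB8).

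Set beside total RNA, most footprint changes ran with the mRNA. In total RNA alone 10766 of 13188 genes (81.6%) passed, 41.7% higher and 40.0% lower. Of 11149 genes tested in both, 7548 were called in both, 7249 in the same direction. The difference between the effects, footprint minus total RNA, passed for 3487 genes (31.3%), 1581 higher (14.2%) and 1906 lower (17.1%). With series means, 2 against 2, it passed for 180, 60 higher and 120 lower, and with the deposited scaling for 3714 higher and 907 lower. The direction of small differences is therefore not given. For 299 genes (2.68%) footprints and mRNA were both called in opposite directions with the difference called, and for 1146 (10.3%) footprints and the difference were called while the 95% interval of the mRNA effect lay inside 0.25 on either side of 0.

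**Figure D4:**
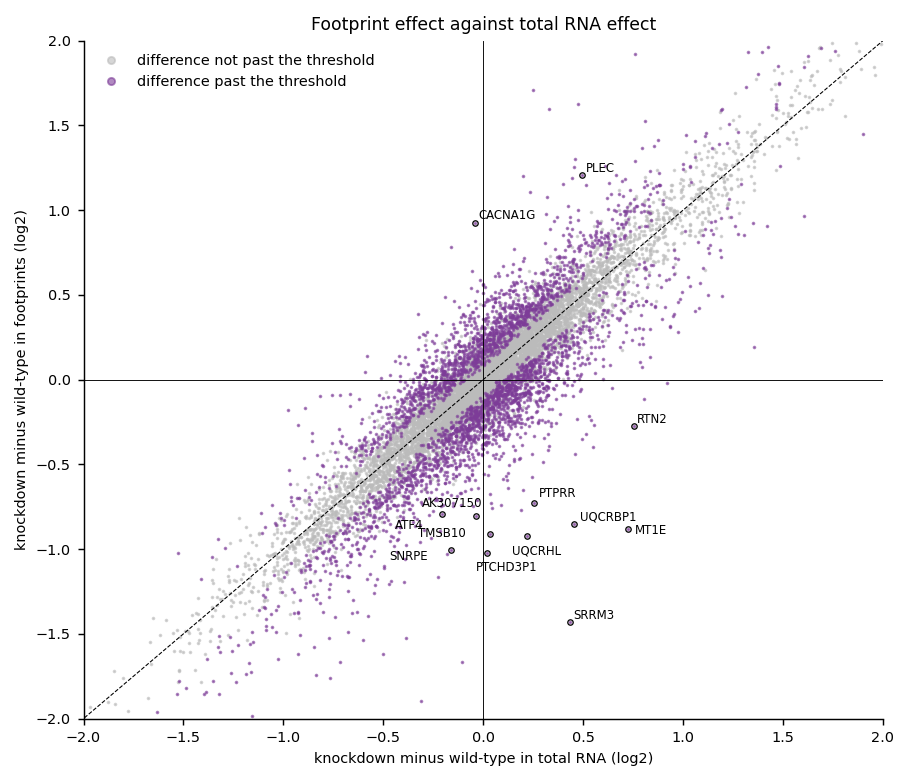
Knockdown minus wild-type in footprints (log2, vertical axis) against the same in total RNA (log2, horizontal axis). Each point is a gene, purple where the difference passed an adjusted p of 0.05, and the dashed line marks equal effects. The axes end at 2 on either side, 11016 genes are drawn and 133 lie outside. Most genes lie along the line, and the circled genes named in the text lie off it.

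Among genes in opposite directions, UQCRHL, a copy of a complex III subunit gene, had 20.0 to 32.5 CPM (median 25.2) in footprints of knockdown and 37.9 to 71.8 CPM (median 48.9) in wild-type. Its footprint effect was -0.92 ± 0.05 and its mRNA effect 0.22, a difference of -1.14 ± 0.06. SRRM3, a neuronal splicing factor, had 2.29 to 8.32 CPM (median 5.36) in knockdown and 4.24 to 21.6 CPM (median 15.4) in wild-type, with effects of -1.43 ± 0.10 in footprints and 0.43 in mRNA. MT1E, a metallothionein, had 31.7 to 92.2 CPM (median 60.1) in knockdown and 58.8 to 161 CPM (median 116) in wild-type, with effects of -0.88 ± 0.13 in footprints and 0.72 in mRNA. Ribosome occupancy and mRNA of these 3 went apart, and UQCRHL and MT1E are uncertain because of close paralogs. The differences of SRRM3 and MT1E did not pass with series means, 2 against 2, and that of UQCRHL did. UQCRBP1, a pseudogene copy, had a difference of -1.31 ± 0.14, PTPRR, a phosphatase, -0.98 ± 0.16, and RTN2, a reticulon, -1.03 ± 0.12. With series means the first 2 passed and that of RTN2 did not. The footprint effect of RTN2 was -0.28 and changed sign without replicate 1.

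Next are genes whose mRNA effect lay within 0.25 of 0, a bound that small mRNA changes can meet. TMSB10, an actin-binding thymosin, had 402 to 706 CPM (median 549) in footprints of knockdown and 755 to 1334 CPM (median 1078) in wild-type. No libraries overlapped, the footprint effect was -0.91 ± 0.06, the mRNA effect 0.03 and the difference -0.94 ± 0.06. ATF4, the stress factor whose own translation is controlled by upstream reading frames, had 9.81 to 21.5 CPM (median 12.9) in knockdown and 13.9 to 29.4 CPM (median 23.2) in wild-type (-0.80 ± 0.07), with an mRNA effect of -0.21. SNRPE, a core spliceosomal protein, had 4.01 to 10.7 CPM (median 6.79) in knockdown and 9.30 to 17.5 CPM (median 13.7) in wild-type. It fell by 1.00 (SE 0.10) in footprints, with an mRNA effect of -0.16. The differences of TMSB10, ATF4 and SNRPE passed under every setting tried. CACNA1G, a calcium channel, went up in footprints (0.93 ± 0.12) at -0.04 in mRNA. PTCHD3P1 and AK307150 fell by 1.02 and 0.80 at few CPM, the difference of AK307150 not passing with series means. Of the gains named above, PLEC had a difference of 0.71 ± 0.06 and MYH9 of 0.29 ± 0.03, that of MYH9 not passing with series means (adjusted p = 0.103), while FN1 (0.07 ± 0.07) and APP (0.02 ± 0.03) did not pass in the fit over all libraries. Among clock genes NR1D2 (-0.07 ± 0.06), PER2 (0.13 ± 0.11) and BHLHE40 (-0.08 ± 0.07) did not pass either. Other clock repressors did, and of 10 tested the difference was higher for 1 and lower for 4. For all genes these shares were 14.2% and 17.1%. With series means the differences of CRY2 (0.40) and PER3 (-0.45) passed, and that of NR1D1 (-0.95) did not. ARNTL differed by -1.83 ± 0.18 at 0 to 6 footprint reads per knockdown library.

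For most genes no difference of the effect between times was detectable over the spread of replicates. An F test that the effect is equal at all 12 times passed for 119 genes (1.06%), 112 by edgeR. Of the 119, 99 were lower in knockdown on average, and 71 had their lowest effect at CT22. Replication, mitosis, repair, G1 and histone lists held 38 of them, out of 141 tested genes in these lists. The median effect of the histone list was -0.77 at CT06 and -1.91 at CT22, and that of kinesin, centromere and spindle genes -0.48 at CT08 and -1.53 at CT22. The p53 targets stayed between 1.04 and 1.35. HIST1H2AG went furthest below wild-type at CT22 (-2.21) and least at CT02 (-0.63, adjusted p = 4.264e-05). PER2 was the 1 clock gene. Which series these calls rest on cannot be told by leaving out a replicate, since the spread then comes from the other treatment alone. With knockdown replicate 1 left out 1 gene passed, the readthrough gene NME1-NME2, and with knockdown replicate 2 left out 0 did (324 at an unadjusted p under 0.05), in a limma fit that takes the lone library of a time to vary like wild-type pairs. With wild-type replicates left out 343 and 477 passed.

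**Figure D5:**
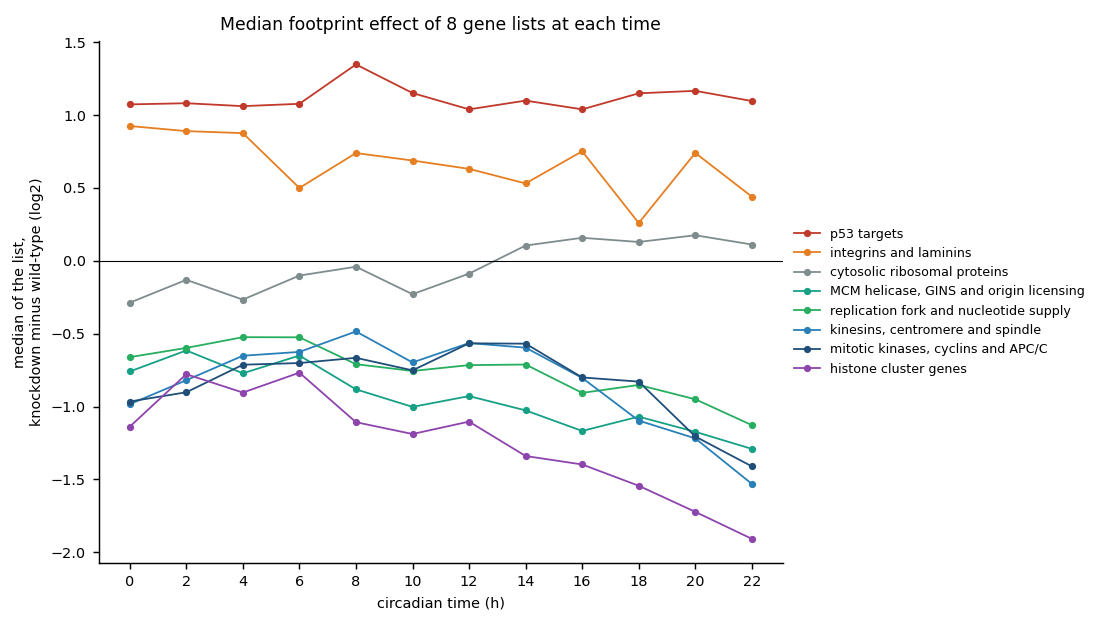
Median knockdown minus wild-type in footprints (log2, vertical axis) of the tested members of 8 gene lists at each circadian time (h). Each point is 1 list at 1 time, from 2 replicates a treatment. Histone, kinesin and mitotic lists are lowest at CT22, at -1.91, -1.53 and -1.41, and p53 targets stay above 1.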

How the data were processed

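Ribosome footprints and total RNA were sequenced from U2-OS cells. The deposited tables hold normalised signal per gene, which the authors made with STAR 2.3.0e, HTSeq 0.5.4p1 and DESeq2 on GRCh37 (hg19), per the submitters' processing notes. The order of these steps and the counting strand are not given in the sources used here. Gene values were whole multiples of 1 read in every library (100% within 0.001), so whole reads were recovered. Because the deposited unit is a normalised signal, limma was the main test, and edgeR and DESeq2 on the recovered reads were alternatives.

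Reads were scaled by TMM within each assay and filtered by filterByExpr (minimum count 10). They were fitted as log2(CPM + 0.25) in limma 3.58.1 (trend, robust; R 4.3.3, edgeR 4.0.16, DESeq2 1.42.0), with a mean for each treatment and time. Adjusted p-values are limma's over all tested genes by Benjamini-Hochberg, with a threshold of 0.05. The by-time F test and the footprint minus total RNA contrast used the same model, the contrast over all 96 libraries. The steps were tested on simulated data.

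Named genes are the 10 largest gains and losses in CPM, the 10 largest rises and falls at a mean of at least 50 CPM, all core clock genes, up to 3 rises and 3 falls per list, the 6 largest opposite and 6 footprint-only changes, and the 8 largest ranges over time at a mean of at least 20 CPM. Members named to complete a count of 5 or fewer, and markers, were chosen outside this rule after their values were seen. The comparison and the gene lists were chosen with earlier results of these data known. RefSeq symbols matched 18668 of 19438 genes. Promoter sequences are RefSeq's (GRCh38.p14). Alternatives were another tool, scaling, pseudocount or filter, series means, a replicate block and leaving out replicates. Depth is given with the results. Some members of the lists are not reported here by name.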

Additional observations from a re-analysis of the deposited data

Results flagged for a closer look

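The test of the difference between times itself picked 119 genes whose knockdown effect in footprints was not equal over the 12 times. The count changed widely when 1 replicate of a treatment was left out. Those fits take the spread from pairs of the other treatment alone, so which series the calls rest on cannot be told. Among the named genes, PER2, a clock repressor, had effects of -0.04 at CT06 and 2.11 at CT00, a range of 2.15 (log2). CCDC147, a coiled-coil protein gene, had effects of 0.74 at CT00 and 3.04 at CT18, a range of 2.3. MYO7B, an unconventional myosin, had effects of 0.41 at CT04 and 2.04 at CT22, a range of 1.64. TUBA1A, an alpha-tubulin, had effects of 0.31 at CT20 and 1.42 at CT04, a range of 1.11. These genes were higher in knockdown on average.

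The other named genes were lower in knockdown on average. KIF24, a kinesin, had effects of -1.81 at CT22 and -0.02 at CT06, a range of 1.79. MXD3, a MYC network factor, had effects of -2.57 at CT22 and -0.73 at CT06, a range of 1.84. ZNF367, a zinc finger gene, had effects of -1.60 at CT20 and 0.00 at CT02, a range of 1.61. LMNB1 had effects of -2.06 at CT22 and -1.17 at CT12, a range of 0.894. TK1 had effects of -1.78 at CT20 and -1.03 at CT02, a range of 0.748. MCM3 and MCM6 had ranges of 0.591 and 0.869, both lowest at CT16. All 10 histone genes here were lowest at CT22, and their ranges were 1.24 for HIST1H1C, 1.4 for HIST1H1E, 1.58 for HIST1H2AG, 1.43 for HIST1H2AH, 1.26 for HIST1H2BC, 1.49 for HIST1H2BJ, 1.26 for HIST1H2BL, 1.71 for HIST1H2BN, 1.51 for HIST1H3D and 1.46 for HIST2H2BE.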

How the results depend on the processing

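Of 286 named genes 282 passed, 259 of them under every setting that tested them. Called genes numbered 8473 with edgeR, 8216 with DESeq2, 8517 with the deposited scaling and 6589 with series means. Genes at least 2-fold higher numbered 283 of 9162 tested where a mean of 10 CPM was required, against 449 of 11189 in the main fit. Part of the 2-fold rises thus lay in genes of low level. The by-time count ran between 0 and 477 over the leave-one-out fits. For the footprint minus total RNA difference, the deposited scaling gave 3714 higher and 907 lower and series means 60 higher and 120 lower, while leaving out replicates gave 823 to 1747 higher and 1024 to 1810 lower. The cause was not tested. Among named genes called in the main fit, direction changed for NPAS2, RPS27A and RTN2. NPAS2 was -0.0067 without replicate 1 and 0.46 without replicate 2. RPS27A was -0.09 without wild-type replicate 1, -0.14 without replicate 1 and 1.41 without replicate 2. RTN2 was 0.027 without wild-type replicate 1, 0.033 without replicate 1 and -0.59 without replicate 2. CLOCK, CRY1 and TEF, not called in the main fit, also changed sign between settings. Deviations of same-numbered knockdown and wild-type libraries at the same time correlated at -0.05 to 0.22, over 0.1 at 4 of 12 times. Any pairing of the treatments by replicate number was thus weak, and the main fit leaves it out. With a replicate block 8502 genes passed, 173 by time, and 1742 higher and 2057 lower in the difference. Depth limits genes near 3 reads per library.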

Other observations

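Promoters with CACGTG in the 250 bases before the RefSeq gene start made up 9.67% of genes higher in knockdown and 8.36% of genes lower in knockdown, beside 9.22% of genes not past the threshold. Among genes changed at least 2-fold the shares were 7.74% of those higher and 6.36% of those lower. These shares are descriptions of the window searched, with no test.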
